A study of Mus musculus with 11 samples.

Results

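Interferon-stimulated genes (ISGs) were followed in mature and immature mouse alveolar macrophages (AMs) with and without the nuclear receptors RXRα and RXRβ. The set was chosen by name: 51 genes that interferon is known to induce, of which 47 were found by symbol among the 12932 genes with deposited values. All 12932 already reached 1 CPM in 3 or more of the 11 libraries. The same filter over the 10 libraries tested left 12889 genes, all 47 among them. Oasl1, Mx2, Ifitm3 and Ifi44 were not analysed here. AMs were flow-sorted from 9-week-old C57BL/6J mice. The WT mature AMs (mAM_WT, 4 libraries) carried the floxed Rxra and Rxrb alleles (Rxrab fl/fl) without Cre and were CD11b-/SiglecF+. The KO mature AMs (mAM_KO, 4 libraries) came from Cd11cCre+ Rxrab fl/fl mice and the same gate. The immature AMs (Imm_KO, 3 libraries) came from Cd11cCre+ Rxrab fl/fl mice and were CD11b+/SiglecF+. All mice therefore carried the floxed alleles. Cd11c-Cre is also active in other CD11c+ cells, such as dendritic cells, and both sexes were used in the study while the labels give no sex. Immature AMs were sequenced from the Cre-positive genotype only, so maturation and genotype cannot be told apart between Imm_KO and mAM_WT.

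Interferons are secreted when a cell senses a virus or foreign nucleic acid. Type I interferon binds the IFNAR receptor, and the kinases JAK1 and TYK2 then activate STAT proteins, which join IRF9 and bind the interferon-stimulated response element (ISRE) in ISG promoters. Interferon-γ acts through its own receptor, and the factors it activates bind the GAS element. ISG products sense viral RNA and DNA, degrade RNA, block viral entry or release, and tag proteins with the ubiquitin-like ISG15. AMs are the resident macrophages of the airspace and meet inhaled viruses first.

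The promoters are shown first because they hold the sequence that the interferon-activated factors read. RefSeq promoter sequences (GRCm38.p6, 250 bases before to 50 after the start) were matched by symbol for 37 of the 47 genes, all but Dhx58, Ifi204, Ifi27l2a, Mx1, Oas2, Parp9, Parp14, Rtp4, Usp18 and Zbp1. The ISRE core was searched as TTTCNNTTTC on either strand, which reads GAAANNGAAA in reverse. It occurred in 20 of the 37 (54.1%), beside 1079 of the 27025 genes of the promoter table (3.99%). The GAS core TTCNNNGAA, which reads the same on both strands and may overlap an ISRE match, occurred in 9 of the 37 (24.3%), beside 9.55% of all genes. A match is a description of the letters, and no binding was measured. The 60-base stretches below, written 5′ to 3′ on the strand of the gene with the ISRE core in capitals, belong to 7 genes whose levels differed in immature AMs and to Isg15 and Ifit1, textbook ISGs whose levels did not pass the test.
Slfn5: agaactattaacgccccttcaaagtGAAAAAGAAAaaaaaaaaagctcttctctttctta
Gbp3: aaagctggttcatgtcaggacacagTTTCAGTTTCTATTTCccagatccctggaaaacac
Bst2: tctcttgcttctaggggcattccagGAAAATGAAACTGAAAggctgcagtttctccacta
Oas3: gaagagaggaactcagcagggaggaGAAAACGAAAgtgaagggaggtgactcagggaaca
Phf11b: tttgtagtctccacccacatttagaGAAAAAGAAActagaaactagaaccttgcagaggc
Gbp7: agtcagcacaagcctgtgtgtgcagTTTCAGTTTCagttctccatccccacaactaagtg
Gbp2: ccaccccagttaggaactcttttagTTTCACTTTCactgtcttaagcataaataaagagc
Isg15: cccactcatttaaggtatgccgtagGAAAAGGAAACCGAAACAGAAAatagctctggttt
Ifit1: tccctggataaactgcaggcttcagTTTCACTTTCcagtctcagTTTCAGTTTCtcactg

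In GRCm38, these stretches are chr11:82951922-82951981 (+) for Slfn5, chr3:142559974-142560033 (+) for Gbp3, chr8:71537568-71537627 (-) for Bst2, chr5:120777700-120777759 (-) for Oas3, chr14:59341346-59341405 (-) for Phf11b, chr3:142530258-142530317 (+) for Gbp7, chr3:142620579-142620638 (+) for Gbp2, chr4:156200862-156200921 (-) for Isg15 and chr19:34640760-34640819 (+) for Ifit1. All lie upstream of the RefSeq transcription start used here. In the gene annotation used for exon lengths, Slfn5 starts at 82951349, so its stretch lies inside the gene. The stretches of Gbp3, Gbp2 and Phf11b span the annotated start. The first capital base was 155 bases before the start in Slfn5, 130 in Bst2 and 104 in Ifit1, and between 45 and 78 in the other 6. Isg15 held 3 overlapping matches, while Gbp3, Bst2 and Ifit1 held 2 each. Split by the comparison of Imm_KO with mAM_WT given further on, the core was found in 6 of the 8 higher genes with a promoter entry, in 1 of the 5 lower genes (Gbp2) and in 13 of the 24 that did not pass the test. The higher genes without a match in this window were Irf9 and Oasl2.

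RNA was measured by sequencing, and levels are normalized read counts scaled to a common library size (CPM). The libraries held 16659960 to 37873532 reads on the listed genes. The labels call the libraries of a group individual biological replicates, and the 15 pairs within groups differed by 8.26 to 45.4 times the variance that counting gives. The tests used mAM_WT 1 to 4, mAM_KO 1 to 3 and Imm_KO 2 to 4. Library mAM_KO 4 entered no test except where stated, because the study left the last mAM_KO library out, for no reason found here. Whole-gene Rxra was 344 ± 29.0 CPM (SD, n = 4) in mAM_WT, 344 ± 9.12 (n = 3) in mAM_KO and 291 ± 12.2 (n = 3) in Imm_KO, with two-sided exact permutation p = 0.914 and 0.0571 against mAM_WT. Whole-gene Rxrb was 59.8 ± 9.29, 46.1 ± 6.79 and 33.5 ± 1.64 CPM, with exact p = 0.114 and 0.0571, the latter being the smallest that 4 against 3 libraries allow. These counts cover all exons, so they do not check the removal of the floxed part. The 9 AM markers summed to between 19930 and 31235 CPM in every library. Chil3 made up most of this sum and rose 1.32-fold in Imm_KO against mAM_WT (adjusted p = 0.0273), while 7 of the 9 fell (Siglecf from 257 to 19.6 CPM on average, Marco from 342 to 12.6) and Pparg did not pass. Without Chil3 the sum was 6748 to 7957 CPM in mAM_WT and 3305 to 3436 in Imm_KO. Of 6 monocyte, 7 interstitial macrophage and 7 neutrophil markers, 5, 5 and 6 were measured, and 4, 5 and 5 of these rose in Imm_KO against mAM_WT. The monocyte sum was 259 to 262 CPM beside 14.9 to 20.9 in mAM_WT, mostly Itgam, which encodes the CD11b of the sort gate, and without Itgam 85.4 to 94.2 beside 11 to 17.3. The interstitial macrophage sum was 288 to 313 CPM beside 1.07 to 2.31. The neutrophil sum was 903 to 976 CPM beside 55.6 to 62.7, mostly Mmp8, and without Mmp8 51.7 to 61.9 beside 30.7 to 39.5. The study counts Mmp8 among the AM-core genes. Their part in the results was not tested, and in bulk RNA fewer cells of a type and less RNA per cell cannot be told apart.

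ISG levels at steady state spanned a wide range. Per kilobase of exon, with the mean of 10 libraries, Slfn2, a Schlafen protein of leukocytes, stood at 118 CPM per kb, Lgals3bp, a secreted galectin-binding glycoprotein, at 68.9 and Samhd1, which breaks down deoxynucleotides, at 49.6. At the other end, Ifit3b, Usp18, Cmpk2, Oasl2 and Oas3 stood between 0.311 and 0.432 CPM per kb. The median of the 47 was 4.64, and Isg15, a gene often used as a reporter of interferon, stood below it at 2.48 CPM per kb.

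**Figure D1:**
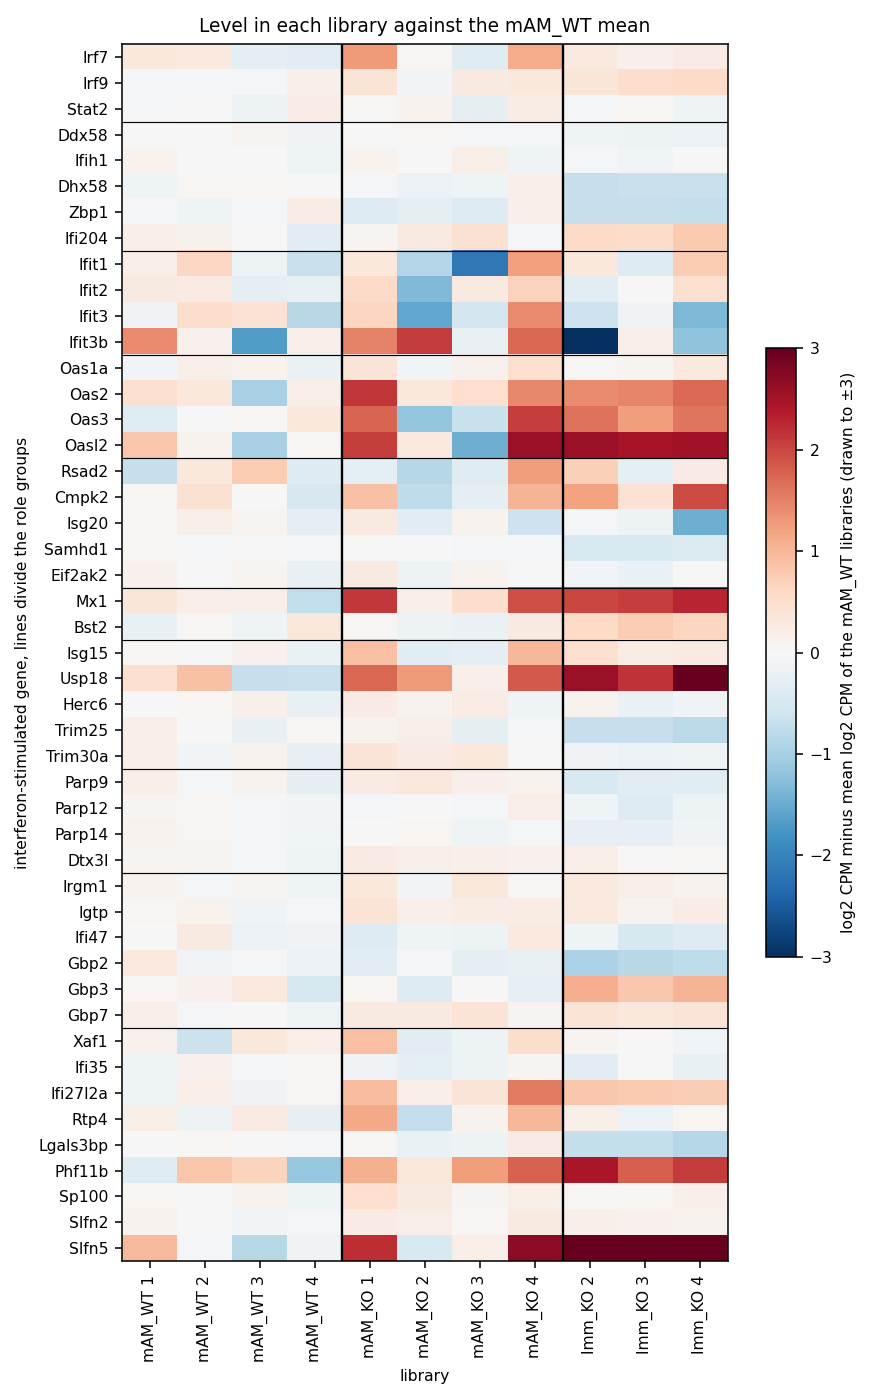
Heat map of 47 interferon-stimulated genes (rows, ordered by role) in 11 libraries (columns); colour is log2 CPM minus the mean log2 CPM of the 4 mAM_WT libraries, drawn from -3 to 3. Columns mAM_KO 1 and mAM_KO 4 are red for many genes, mAM_KO 2 and mAM_KO 3 are not, and Slfn5, Oasl2 and Mx1 are red in all 3 Imm_KO libraries.

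Whether loss of RXRs in mature AMs goes with a change in ISGs was asked by comparing mAM_KO with mAM_WT. None of the 47 genes passed the test (limma, Benjamini-Hochberg adjusted p below 0.05 over all 12889 genes), where 4.84% of all genes did (2.25% higher and 2.59% lower). At an unadjusted p below 0.05, 9 of the 47 and 23.6% of all genes passed. With the reads recovered from the CPM, edgeR called none of the 47, with 11 at an unadjusted p below 0.05, and DESeq2 called 2. Of all genes, edgeR called 4.39% and DESeq2 10.6%. The median log2 fold change was 0.10 (-0.0019 over all genes), with 28 genes above 0 and 19 below. Immature AMs differed more from mAM_WT: 22 of the 47 (46.8%) passed the test, 13 higher and 9 lower, beside 48.1% of all genes (22.8% higher and 25.3% lower), so the share of ISGs called was near that of all genes. The median log2 fold change was 0.08 (-0.0025 over all genes). Usp18 passed the filter on low values only through the Imm_KO libraries and Ifit3b only through mature ones; without Usp18, 21 of 46 were called. Between Imm_KO and mAM_KO, 11 of the 47 (23.4%) passed, 4 higher and 7 lower, beside 37.9% of all genes (17.7% higher and 20.2% lower), with a median of -0.06 (-0.0053 over all genes). The 3 comparisons share libraries, and each is given with its own values.

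**Figure D2:**
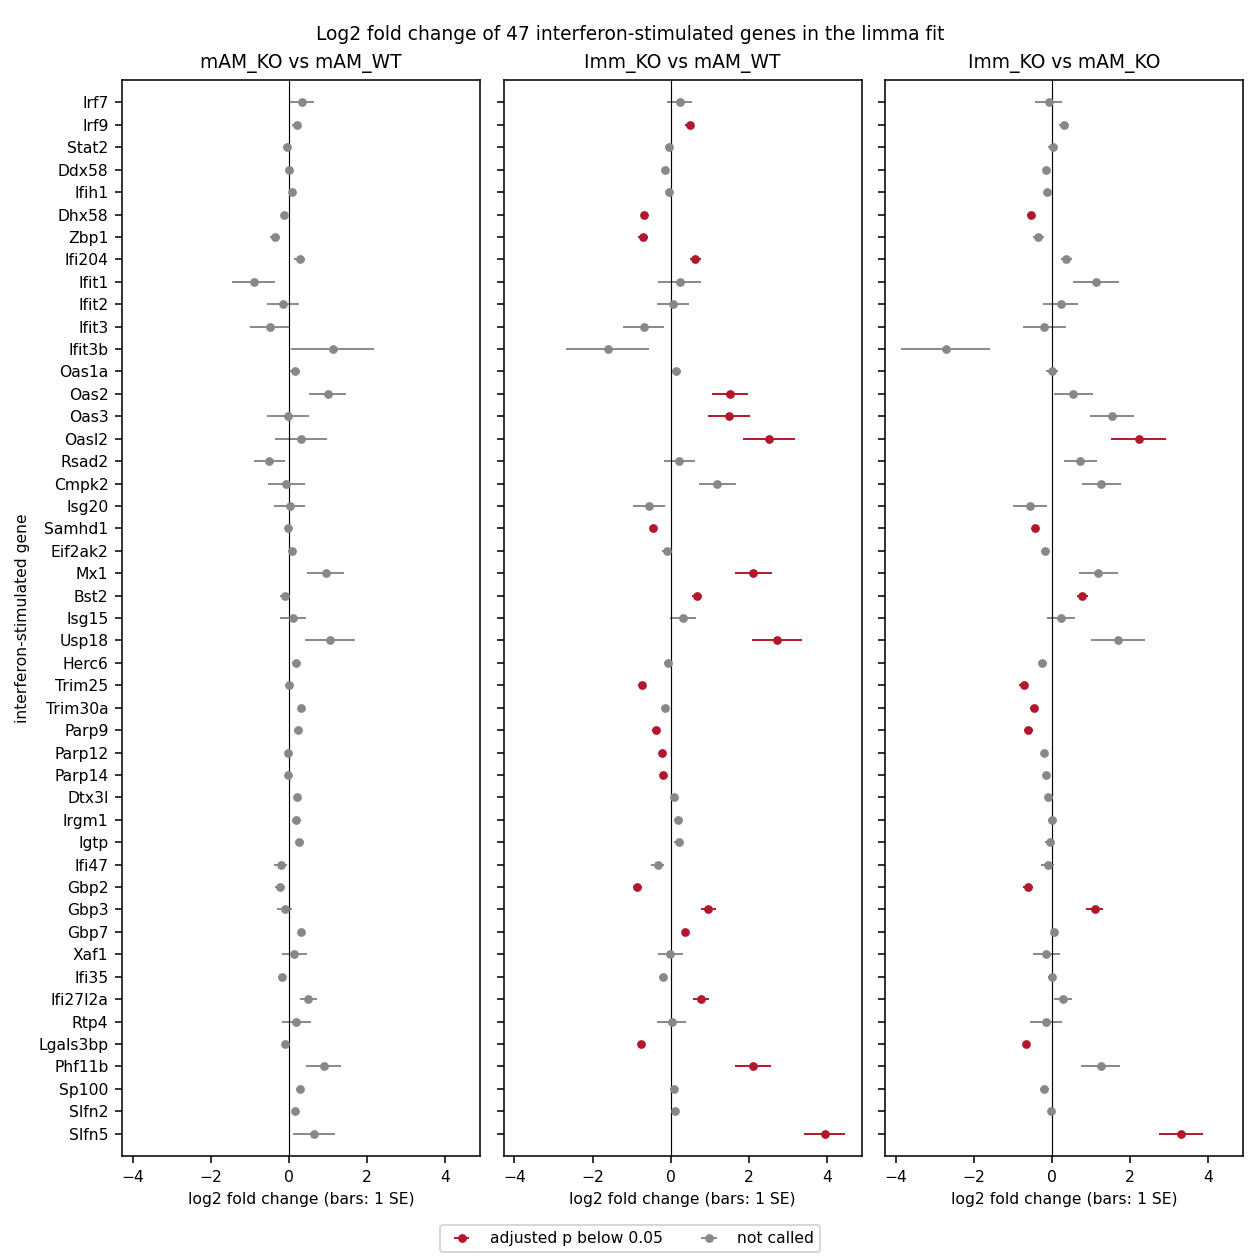
Log2 fold change (x axis; bars are 1 SE of the limma fit) of 47 interferon-stimulated genes (y axis) in the 3 comparisons; red points have an adjusted p below 0.05. No point is red for mAM_KO against mAM_WT, 22 are for Imm_KO against mAM_WT and 11 for Imm_KO against mAM_KO, with Slfn5 farthest to the right in the latter comparisons.

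Of the 3 transcription factors measured, Irf9 rose in immature AMs and Irf7 and Stat2 passed in no comparison. Irf9, the DNA-binding partner of STAT2, was at 25.5, 26.1, 25.4 and 29.8 CPM in mAM_WT 1 to 4, at 35.3, 25.1, 32.3 and 33.2 in mAM_KO 1 to 4 and at 34.0, 38.6 and 39.9 in Imm_KO 2 to 4. Every Imm_KO library lay above every mAM_WT library, and Irf9 rose 1.40-fold (log2 0.49 ± 0.12 SE, adjusted p = 0.00443). Irf7, the factor that amplifies interferon production, was at 6.33, 6.17, 4.15 and 4.10 CPM in mAM_WT, 12.2, 5.29, 3.96 and 10.9 in mAM_KO and 6.23, 5.64 and 6.07 in Imm_KO. Thus mAM_KO 1 and 4 stood above all other libraries, mAM_KO 2 lay within the range of mAM_WT and mAM_KO 3 just below it. The adjusted p of Irf7 was 0.575 for mAM_KO and 0.576 for Imm_KO against mAM_WT. Stat2, which joins IRF9, lay between 59.2 and 83.9 CPM in all 11 libraries, with groups that overlapped (adjusted p = 0.821, 0.820 and 0.936 in the 3 comparisons).

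Of the 5 sensors, Ifi204 rose and Dhx58 and Zbp1 fell in Imm_KO against mAM_WT. Ddx58 (RIG-I) and Ifih1 (MDA5) detect viral RNA in the cytoplasm. Ddx58 lay between 51.4 and 58.6 CPM in the 8 mature libraries and between 48.8 and 51.0 in Imm_KO (adjusted p = 0.0885 against mAM_WT, and 0.0327 without mAM_WT 4). Ifih1 lay between 54.7 and 66.9 CPM in all libraries (adjusted p = 0.641). Dhx58 (LGP2), which modulates both, was at 23.1, 26.3, 26.5 and 25.7 CPM in mAM_WT, 24.2, 22.6, 23.2 and 28.2 in mAM_KO and 15.8, 15.9 and 16.0 in Imm_KO. The immature libraries were thus below all mature ones. Dhx58 was 1.59-fold lower than in mAM_WT (log2 -0.67 ± 0.09 SE, adjusted p = 4.42e-05) and 1.47-fold lower than in mAM_KO (adjusted p = 0.000568). Zbp1, a sensor of Z-form nucleic acid that triggers cell death, was at 12.3, 11.6, 12.4 and 14.8 CPM in mAM_WT, 9.72, 10.4, 9.78 and 14.2 in mAM_KO and 7.84, 7.82 and 7.75 in Imm_KO. It fell in Imm_KO against mAM_WT (log2 -0.71 ± 0.13 SE, adjusted p = 0.00047). Between mAM_KO and mAM_WT, Zbp1 was among the 4 genes of lowest p without passing (log2 -0.35 ± 0.13, adjusted p = 0.114), and mAM_KO 4, outside that fit, stood with the mAM_WT libraries. Ifi204, of the IFI16-like DNA sensors, went from 22.6 to 32.7 CPM in mAM_WT to 41.7 to 49.4 in Imm_KO and rose 1.55-fold (adjusted p = 0.00151). It shared 16.5% of its 60-base windows with paralogs, so its reads are uncertain.

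None of the 4 IFIT genes, whose products bind viral RNA, passed in any comparison (limma, adjusted p 0.0776 or more). At an unadjusted p below 0.05, Ifit3b passed between Imm_KO and mAM_KO by limma, edgeR and DESeq2. After adjustment it was called there under DESeq2 (0.0496), with all 11 libraries (0.0376), with quantile normalization (0.0459) and without Imm_KO 3 (0.0499), and Ifit1 was called there without mAM_KO 1 (0.0298). Ifit3b passed the filter on low values only through mAM_WT 1 and mAM_KO 1 and 2, so it was tested because it was high there, and nothing is read from its lower value in Imm_KO. Ifit1 was at 1.84, 2.47, 1.45 and 1.01 CPM in mAM_WT, 2.01, 0.871, 0.360 and 3.78 in mAM_KO and 2.0, 1.23 and 2.70 in Imm_KO. The mAM_KO libraries thus held both the highest and the lowest value, 10.5-fold apart. Ifit2 ranged from 1.13 to 4.60 CPM and Ifit3 from 0.786 to 6.25, both extremes again in mAM_KO. Ifit3b had no read in Imm_KO 2 and at most 1.81 CPM elsewhere, and it shared 40.8% of its windows with Ifit3, so the reads of this pair could not be told apart with certainty.

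Of the 4 OAS family genes, 3 rose in Imm_KO against mAM_WT. OAS enzymes make the 2′-5′-linked oligoadenylates that activate RNase L. Oasl2 was at 1.76, 1.07, 0.507 and 1.01 CPM in mAM_WT, 4.18, 1.21, 0.360 and 5.98 in mAM_KO and 5.81, 5.59 and 5.65 in Imm_KO. The Imm_KO libraries lay close together and above every mAM_WT library, while mAM_KO 1 and 4 stood near them and mAM_KO 2 and 3 did not. Oasl2 rose 5.75-fold against mAM_WT (log2 2.52 ± 0.66 SE, adjusted p = 0.00662). Against mAM_KO it was 4.65-fold higher (log2 2.22 ± 0.70, adjusted p = 0.0243), and with all 11 libraries the adjusted p was 0.104. That call was also lost under edgeR (2.99-fold, log2 1.58, adjusted p = 0.0746), without a variance trend (0.0558) and without mAM_KO 2 (0.0546), mAM_KO 3 (0.0858), Imm_KO 2 (0.0639), Imm_KO 3 (0.0626) or Imm_KO 4 (0.0619). The fold was 2.53 without mAM_KO 3, 8.60 without mAM_KO 1 and 3.01 under DESeq2.

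Oas2 was at 1.60, 1.43, 0.582 and 1.3 CPM in mAM_WT, 5.05, 1.42, 1.63 and 3.14 in mAM_KO and 3.07, 3.18 and 3.70 in Imm_KO. It rose 2.88-fold in Imm_KO against mAM_WT (log2 1.53 ± 0.47 SE, adjusted p = 0.0161), a call lost without Imm_KO 4 (adjusted p = 0.0569). Again mAM_KO 1 was the highest library and mAM_KO 2 and 3 the lowest of their group. Oas3 was at 1.39, 1.79, 1.86 and 2.23 CPM in mAM_WT, 6.02, 0.786, 1.14 and 7.58 in mAM_KO and 5.51, 4.29 and 5.49 in Imm_KO. All Imm_KO libraries exceeded all mAM_WT libraries, a 2.83-fold rise (log2 1.5 ± 0.54 SE, adjusted p = 0.0354). With all 11 libraries the adjusted p of Oas3 was 0.0732, and the call was also lost without mAM_WT 1 (0.0759), mAM_WT 2 (0.0647), mAM_WT 3 (0.0566), Imm_KO 2 (0.0962), Imm_KO 3 (0.0606) or Imm_KO 4 (0.0949). Against mAM_KO neither Oas2 (adjusted p = 0.427) nor Oas3 (0.0522) passed, and Oas3 was called there without mAM_KO 1 (0.000186). Oas1a lay between 16.3 and 26.8 CPM in all libraries and passed in no comparison; it shared 52.9% of its windows with other Oas1 genes.

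**Figure D3:**
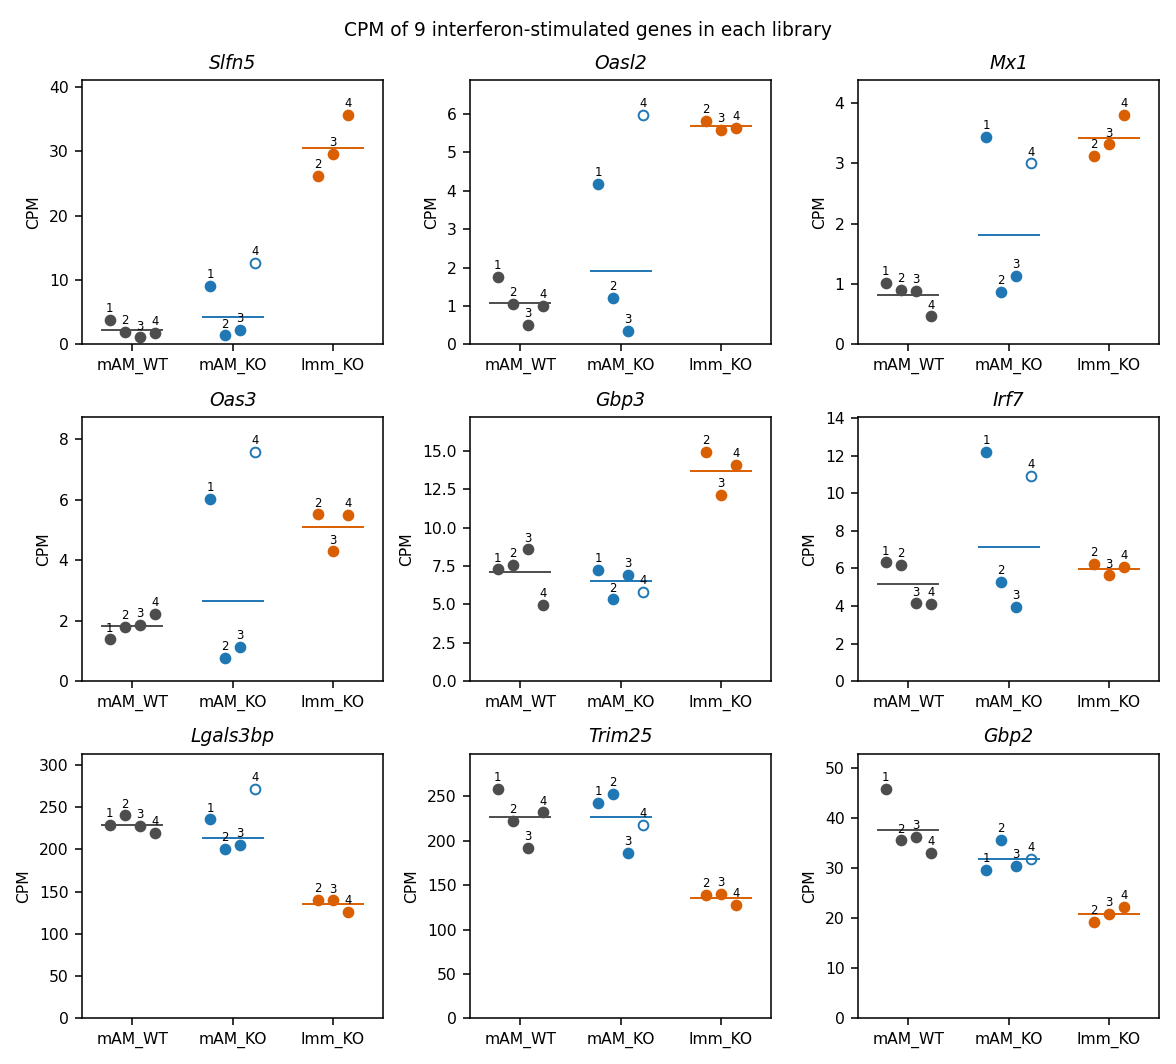
CPM (y axis, from 0) of 9 interferon-stimulated genes in each library, numbered by replicate; lines are means of the tested libraries and the open circle is mAM_KO 4, which was outside the reported fit. Slfn5, Oasl2, Mx1, Oas3 and Irf7 are high in mAM_KO 1 and 4, while Lgals3bp, Trim25 and Gbp2 are lowest in the 3 Imm_KO libraries.

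The measured MX and membrane restriction genes both rose in Imm_KO against mAM_WT. Mx1, a GTPase that blocks influenza virus, was at 1.0, 0.905, 0.882 and 0.467 CPM in mAM_WT, 3.44, 0.871, 1.14 and 3.0 in mAM_KO and 3.13, 3.32 and 3.81 in Imm_KO. In mAM_KO 1 and 4 the level was thus near that of immature AMs, and in mAM_KO 2 and 3 near that of mAM_WT. Mx1 rose 4.34-fold against mAM_WT (log2 2.12 ± 0.47 SE, adjusted p = 0.00242) and did not pass against mAM_KO (log2 1.18 ± 0.50, adjusted p = 0.0832), except with 1 CPM added (0.0494) and without mAM_KO 1 (0.00951). Bst2 (tetherin), which holds budding virions at the cell surface, was at 19.2, 22.9, 20.5 and 28.3 CPM in mAM_WT, 23.1, 20.3, 19.5 and 27.1 in mAM_KO and 34.1, 38 and 35.2 in Imm_KO. No mature library reached the immature ones. Bst2 rose 1.59-fold against mAM_WT (log2 0.67 ± 0.13 SE, adjusted p = 0.000795) and 1.71-fold against mAM_KO (log2 0.77 ± 0.14, adjusted p = 0.000619).

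Of 5 other enzymes of nucleotides and RNA, limma called Samhd1 in Imm_KO against mAM_WT, and edgeR and DESeq2 called Samhd1 and Cmpk2. Samhd1, a deoxynucleotide hydrolase that limits retroviruses, lay between 479 and 517 CPM in the 8 mature libraries and between 359 and 366 in the immature ones. It was 1.37-fold lower in Imm_KO than in mAM_WT (log2 -0.45 ± 0.05 SE, adjusted p = 1.53e-05) and 1.35-fold lower than in mAM_KO (adjusted p = 6.2e-05). Cmpk2, a mitochondrial nucleotide kinase, had 1.51 to 4.33 CPM in Imm_KO and 0.810 to 1.55 in mAM_WT (limma, log2 1.19 ± 0.47 SE, adjusted p = 0.0542). It was called under edgeR (0.0403), DESeq2 (0.0186), with 1 CPM added (0.0334), with only the 2 groups fitted (0.0333) and without mAM_KO 1 (0.0369), mAM_KO 2 (0.0418) or Imm_KO 3 (0.0295). Against mAM_KO, Cmpk2 did not pass (0.0682) except under DESeq2 (0.0486) and without mAM_KO 1 (0.0209) or Imm_KO 3 (0.0395). Rsad2 (viperin) ranged from 1.08 to 4.70 CPM, Isg20, an RNA exonuclease, from 0.551 to 1.82 and Eif2ak2 (PKR) from 39.6 to 56.2 over all libraries, and none of the 3 passed in any comparison.

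In the ISG15 and ubiquitin group, Trim25 fell in Imm_KO against mAM_WT. Usp18 was called higher there, but it passed the filter only through the Imm_KO libraries. Isg15 itself was at 1.73, 1.67, 1.82 and 1.45 CPM in mAM_WT, 3.12, 1.34, 1.36 and 3.32 in mAM_KO and 2.35, 1.92 and 1.97 in Imm_KO. Only mAM_KO 1 and 4 exceeded 3 CPM, and Isg15 passed in no comparison (adjusted p = 0.886, 0.465 and 0.673). Usp18, which removes ISG15 from proteins and restrains IFNAR signalling, rested on few reads: 14, 12, 4 and 3 in mAM_WT, 19, 15, 5 and 21 in mAM_KO and 27, 26 and 56 in Imm_KO. Each Imm_KO library held more reads than any mature one, and at 0.307 ± 0.165 CPM (SD, n = 4) in mAM_WT and 1.95 ± 0.908 (n = 3) in Imm_KO the rise was 6.64-fold in the limma fit (log2 2.73 ± 0.65 SE, adjusted p = 0.00361). Against mAM_KO it did not pass by limma (adjusted p = 0.0724), and was called by edgeR (0.0426), DESeq2 (0.0267), limma without a variance trend (0.0465), with only the 2 groups fitted (0.0482) and with 1 CPM added (0.0179). Usp18 was tested only because it was high in Imm_KO, as given above, so nothing is read from its higher value there.

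Trim25, the ubiquitin ligase that activates RIG-I, was at 259, 222, 192 and 232 CPM in mAM_WT, 243, 253, 187 and 218 in mAM_KO and 139, 140.3 and 128 in Imm_KO. All immature libraries were below all mature ones, 1.66-fold against either mature group (log2 -0.73 ± 0.11 SE, adjusted p = 0.000149 against mAM_WT and 0.000363 against mAM_KO). Trim30a, which restrains Toll-like receptor signalling, was at 93.7, 76.8, 87.8 and 68.7 CPM in mAM_WT, 106, 95.8, 101 and 82.4 in mAM_KO and 75.4, 71.7 and 73.9 in Imm_KO. The mAM_KO libraries tested were all above mAM_WT without passing (log2 0.32 ± 0.10 SE, adjusted p = 0.0775), except under DESeq2 (0.04) and without mAM_WT 1 (0.0311). Against mAM_KO, Trim30a fell 1.37-fold in Imm_KO (log2 -0.46 ± 0.10, adjusted p = 0.00371). Herc6, the mouse ligase that attaches ISG15, lay between 21.9 and 30 CPM and passed in no comparison.

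Of the PARP family genes, which add ADP-ribose to proteins, 3 fell in Imm_KO against mAM_WT. Parp9, the partner of the ubiquitin ligase DTX3L, was at 60.5, 50.9, 56.1 and 43.8 CPM in mAM_WT, 61.9, 65.7, 58.3 and 56.2 in mAM_KO and 38.1, 42.0 and 41.3 in Imm_KO. The mAM_KO libraries overlapped mAM_WT and the immature libraries lay below both. Parp9 was 1.53-fold lower in Imm_KO than in mAM_KO (log2 -0.61 ± 0.11 SE, adjusted p = 0.000735) and also lower than in mAM_WT (log2 -0.38 ± 0.10, adjusted p = 0.00928). Parp12 (38.5 to 45.9 CPM in Imm_KO, 47.8 to 53.4 in mAM_WT, adjusted p = 0.0375) and Parp14 (79.9 to 88.5 and 89.8 to 103 CPM, adjusted p = 0.0494) fell by less. With all 11 libraries their adjusted p were 0.0559 and 0.0513. The Parp12 call was lost without mAM_WT 1 (0.0884), mAM_WT 2 (0.0849), mAM_WT 3 (0.0517) or Imm_KO 3 (0.19), and the Parp14 call without any of these (0.123, 0.103, 0.0516 and 0.153), mAM_KO 1 (0.0639) or Imm_KO 2 (0.15). Dtx3l lay at 58.7 to 67.9 CPM in mAM_WT, between 70.2 and 76.2 in mAM_KO and between 64.4 and 73.7 in Imm_KO and passed in no comparison (adjusted p = 0.153 for mAM_KO against mAM_WT), although its mature groups did not overlap.

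The interferon-inducible GTPases, which attack vacuoles that hold microbes, moved in both directions. Gbp3 was at 7.28, 7.58, 8.58 and 4.98 CPM in mAM_WT, 7.27, 5.33, 6.90 and 5.84 in mAM_KO and 14.9, 12.1 and 14.0 in Imm_KO. It rose in immature AMs against mAM_WT (1.96-fold, log2 0.97 ± 0.19 SE, adjusted p = 0.00116) and mAM_KO (2.12-fold, log2 1.08 ± 0.21, adjusted p = 0.00118). Gbp2, its neighbour on chromosome 3, was at 45.8, 35.5, 36.1 and 33.1 CPM in mAM_WT, 29.6, 35.6, 30.4 and 31.8 in mAM_KO and 19.3, 20.8 and 22.2 in Imm_KO. It fell against mAM_WT (1.80-fold, log2 -0.85 ± 0.12, adjusted p = 6.4e-05) and mAM_KO (1.53-fold, log2 -0.61 ± 0.13, adjusted p = 0.00192). Both genes hold the ISRE core printed above, so that the same core stood before a gene that was higher and one that was lower.

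Gbp7 was at 77.8, 64.6, 67.9 and 61.4 CPM in mAM_WT, 80.9, 82.1, 89.2 and 71.4 in mAM_KO and 90.4, 83.8 and 88.3 in Imm_KO. Of all 47 genes it came nearest to passing between mAM_KO and mAM_WT (1.24-fold, log2 0.31 ± 0.08 SE, adjusted p = 0.0525). It passed there with a filter at 5 CPM (adjusted p = 0.0458), with quantile normalization (0.0497), without the TMM factor (0.0495), under DESeq2 (0.0182) and without mAM_WT 1 (0.0174), and it rose in Imm_KO against mAM_WT (1.29-fold, adjusted p = 0.00283). Gbp7 shared 12.1% of its windows with other genes. Irgm1 (22.5 to 31.2 CPM over all libraries), Igtp (12.4 to 17.8) and Ifi47 (6.70 to 11.5) passed in no comparison. The 4 mAM_KO libraries of Igtp (15 to 17.8 CPM) lay above the mAM_WT libraries (12.4 to 14.5), with an adjusted p of 0.17.

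Slfn5, a Schlafen protein, had the largest fold change of the 47 genes. It was at 3.84, 1.91, 1.11 and 1.84 CPM in mAM_WT, 9.12, 1.42, 2.24 and 12.7 in mAM_KO and 26.2, 29.6 and 35.7 in Imm_KO. Every immature library was above every mature one, and among the mature libraries mAM_KO 1 and 4 stood apart. Slfn5 rose 15.4-fold against mAM_WT (log2 3.94 ± 0.53 SE, adjusted p = 4.81e-05) and 9.83-fold against mAM_KO (log2 3.30 ± 0.57, adjusted p = 0.000526), on 439, 638 and 679 reads in Imm_KO and 29 to 145 in mAM_WT. Without mAM_KO 1 the fold against mAM_KO was 16.9 (log2 4.08). Slfn2, the family member expressed most per kilobase, lay between 176 and 223 CPM and passed in no comparison, except with quantile normalization in Imm_KO against mAM_WT (adjusted p = 0.0189).

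Phf11b, a PHD finger protein, was at 0.806, 1.83, 1.63 and 0.467 CPM in mAM_WT, 2.15, 1.3, 2.47 and 3.51 in mAM_KO and 5.63, 3.59 and 4.44 in Imm_KO. It rose 4.35-fold in Imm_KO against mAM_WT (log2 2.12 ± 0.46 SE, adjusted p = 0.00205), not against mAM_KO (adjusted p = 0.0645), where it was called under DESeq2 (0.0212), with only the 2 groups fitted (0.0149), with 1 CPM added (0.0168) and without mAM_WT 4 (0.0230). Of its windows 38.1% were shared with Phf11a and Phf11c. Ifi27l2a, a mitochondrial membrane protein, went from 3.16 to 3.92 CPM in mAM_WT to 5.75 to 5.99 in Imm_KO (1.71-fold, adjusted p = 0.00738) and reached 10.1 in mAM_KO 4. Lgals3bp was at 229, 240.3, 228 and 219 CPM in mAM_WT, 236, 200.1, 206 and 272 in mAM_KO and 139.8, 139.5 and 126 in Imm_KO. Of the 47 genes it had the lowest p in both comparisons with Imm_KO, 1.70-fold lower than in mAM_WT (log2 -0.76 ± 0.07 SE, adjusted p = 1.84e-06) and 1.58-fold lower than in mAM_KO (log2 -0.66 ± 0.08, adjusted p = 2.03e-05). Sp100, a component of nuclear bodies, was at 31.1, 29.6, 32.2 and 27.4 CPM in mAM_WT, 42.7, 36.0, 31.9 and 34.2 in mAM_KO and 31.0, 31.1 and 33.2 in Imm_KO, and did not pass (log2 0.29 ± 0.10 for mAM_KO against mAM_WT, adjusted p = 0.121). Xaf1 (2.15 to 6.25 CPM), Rtp4 (1.34 to 4.82) and Ifi35 (24.4 to 33.7) passed in no comparison.

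More of the 47 genes stood above all mAM_WT libraries in mAM_KO 1 and 4 than in mAM_KO 2 and 3. In mAM_KO 1 and in mAM_KO 4, 29 genes each (61.7%) were above every mAM_WT library, where 25.5% and 22.5% of all genes tested were. In mAM_KO 2 and 3 the numbers were 11 (23.4%) and 13 (27.7%), beside 24.6% and 27.8% of all genes. The genes above in mAM_KO 1 and in mAM_KO 4 were partly different: 22 of the 47 (46.8%) were above in both, beside 8.56% of all genes. Of these, 11 (23.4%, beside 1.43% of all genes) were above in neither mAM_KO 2 nor 3, namely Irf7, Ifit2, Ifit3, Oas1a, Oas3, Oasl2, Cmpk2, Isg15, Xaf1, Rtp4 and Slfn5. The reverse split, above in mAM_KO 2 and 3 and in neither 1 nor 4, held 1 gene (Ifi204, 2.13%, beside 3.42% of all genes). Libraries 1 and 4 were set together after these values were seen, so the counts describe the split and do not test it. The median over the 47 genes of log2 CPM relative to the mAM_WT mean was 0.28 in mAM_KO 1 and 0.25 in mAM_KO 4, but -0.02 in mAM_KO 2 and -0.01 in mAM_KO 3. Between the lowest and the highest of the 4 mAM_KO libraries Oasl2 differed 16.6-fold, Ifit1 10.5-fold, Oas3 9.65-fold, Slfn5 8.93-fold and Ifit3 7.96-fold. In the Imm_KO libraries 19, 16 and 21 genes (40.4%, 34.0% and 44.7%) were above every mAM_WT library, beside 35.3%, 34.1% and 35.1% of all genes. Within mAM_WT, replicate 1 was the highest library for 20 genes (42.6%, beside 22.4% of all genes) and replicate 4 the lowest for 27 (57.4%, beside 31.7%).

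The SD of log2 CPM was larger over the 4 mAM_KO than over the 4 mAM_WT libraries for 33 of the 47 genes (70.2%), beside 59.5% of all genes. Its median over the 47 genes was 0.19 in mAM_WT, 0.22 in mAM_KO and 0.11 in Imm_KO. Over all genes tested it was 0.17, 0.20 and 0.13, in the same order of groups. The mAM_KO libraries 1 and 4 held 21620088 and 22089589 reads, between those of libraries 3 and 2 (17964528 and 23545727). The summed monocyte markers were 20.4, 20.8, 35.2 and 22.5 CPM in mAM_KO 1 to 4, the interstitial macrophage markers 5.75, 3.55, 11.2 and 6.80 and the neutrophil markers 190, 113, 340 and 157 (31.6, 40.6, 37.5 and 24.6 without Mmp8). Their part in these values was not tested. Because replicate 1 was in the tests and replicate 4 was not, the choice of libraries touched this comparison directly. With mAM_KO 4 in place of mAM_KO 1, or with all 11 libraries, none of the 47 genes passed between mAM_KO and mAM_WT (limma, 4 and 11 at an unadjusted p below 0.05). Of all genes, 1.26% and 2.61% passed in these settings.

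**Figure D4:**
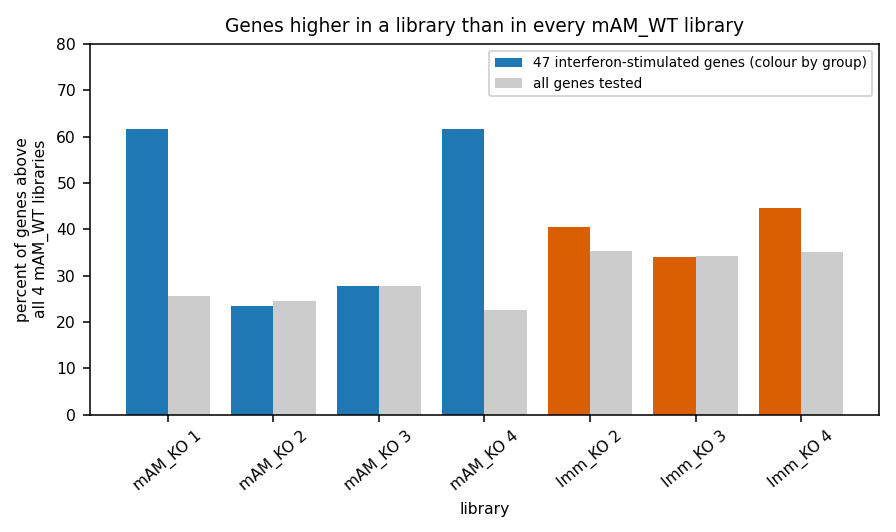
Percent of genes (y axis, from 0) whose CPM exceeds all 4 mAM_WT libraries, for each mAM_KO and Imm_KO library (x axis); coloured bars are the 47 interferon-stimulated genes and grey bars all genes tested. The coloured bars of mAM_KO 1 and 4 reach 61.7%, above grey bars of 25.5% and 22.5%, while those of mAM_KO 2 and 3 are near theirs.

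The other genes of the pathway were taken from a list of 129 receptors, ligands, kinases, factors, inhibitors, sensors and further induced genes, of which 103 were measured and tested. Between mAM_KO and mAM_WT 9 passed (8.74%, beside 4.84% of all genes), with Ifngr1, Socs3, Tlr3, Trim12c, Lgals9, Slfn4 and Slfn8 higher and Myd88 and Uba7 lower. Of these, Myd88 (adjusted p = 0.0783), Uba7 (0.133), Lgals9 (0.121), Slfn4 (0.0546) and Trim12c (0.0508) lost the call without mAM_KO 1, and the first 4 also without mAM_KO 3 (0.127, 0.155, 0.143 and 0.163). Between Imm_KO and mAM_WT 65 passed (63.1%, beside 48.1% of all genes), 38 higher and 27 lower, and between Imm_KO and mAM_KO 50 (48.5%, beside 37.9%), with 29 higher and 21 lower. The 8 ligand genes listed, among them Ifnb1 and Ifng, were not analysed here, nor was Socs1.

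All 5 receptor genes measured rose in Imm_KO against both mature groups. Ifnar1, the first chain of the type I receptor, was at 62.9, 52.5, 60.7 and 57.1 CPM in mAM_WT, 57.7, 62.3, 62.7 and 58.1 in mAM_KO and 92.0, 89.2 and 89.6 in Imm_KO (1.55-fold against mAM_WT, log2 0.63 ± 0.08 SE, adjusted p = 1.64e-05). Ifnar2, the other chain, was at 55.6, 61.5, 59.5 and 58.0 CPM in mAM_WT, 55.0, 57.3, 62.7 and 64.6 in mAM_KO and 78.5, 78.7 and 80.6 in Imm_KO (1.35-fold, adjusted p = 0.000226). The mature groups overlapped in both genes and the immature libraries stood above them. Ifngr1, the ligand-binding chain of the interferon-γ receptor, was at 150.0, 171, 136 and 148 CPM in mAM_WT, 199, 204, 209 and 198 in mAM_KO and 423, 419 and 442 in Imm_KO. The 3 groups did not overlap. Ifngr1 rose 1.35-fold in mAM_KO (log2 0.43 ± 0.07, adjusted p = 0.00842; 0.053 without a variance trend) and 2.84-fold in Imm_KO (log2 1.5 ± 0.07, adjusted p = 4.55e-09) against mAM_WT.

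The kinase genes Jak1 and Tyk2 passed in no comparison. Jak1 lay between 232 and 303 CPM in all libraries (adjusted p = 0.638, 0.394 and 0.889 in the 3 comparisons) and Tyk2 between 124 and 171 (adjusted p = 0.856, 0.941 and 0.760). Socs3, an inhibitor of cytokine signalling, was at 8.71, 6.62, 5.39 and 10.4 CPM in mAM_WT, 20.8, 12.2, 15.4 and 12.4 in mAM_KO and 53.3, 58.8 and 57.7 in Imm_KO (2.09-fold in mAM_KO, adjusted p = 0.0187, and 7.51-fold in Imm_KO, adjusted p = 1.94e-07, against mAM_WT). The Socs3 call in mAM_KO was lost without mAM_WT 2 (0.057), mAM_KO 1 (0.0796) or mAM_KO 3 (0.066).

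**Figure D5:**
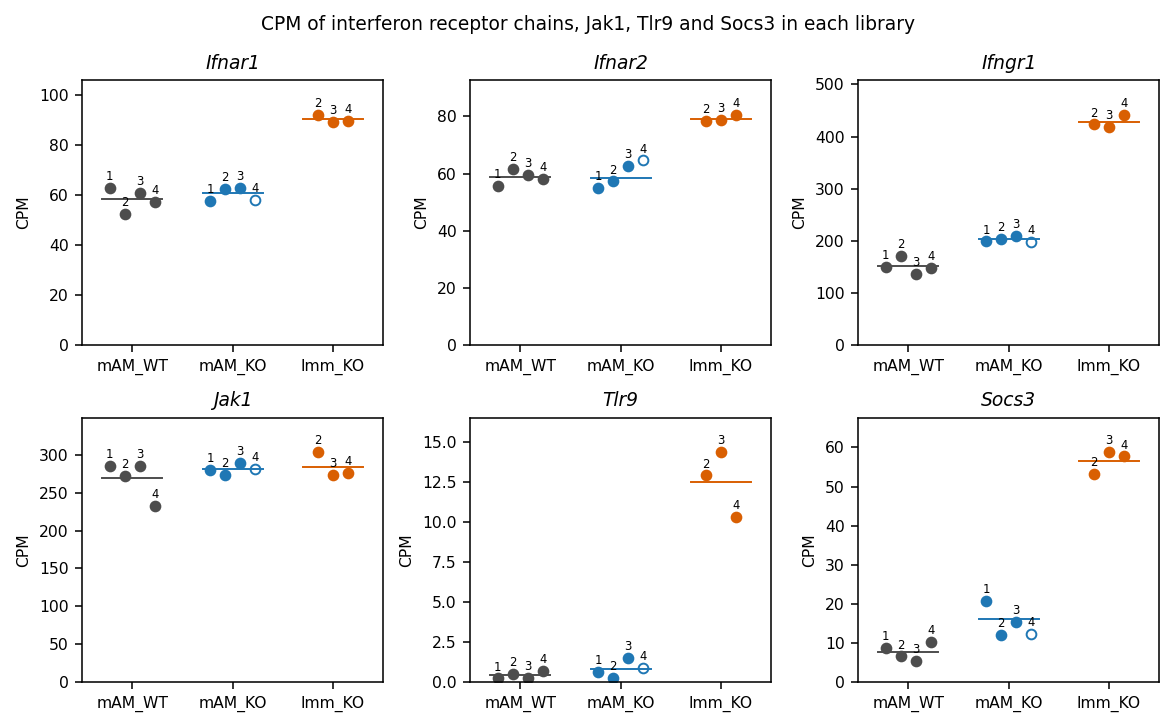
CPM (y axis, from 0) of interferon receptor chains, Jak1, Tlr9 and Socs3 in each library, numbered by replicate; lines are means of the tested libraries and the open circle is mAM_KO 4, which was outside the reported fit. The Imm_KO libraries are above the others for Ifnar1, Ifnar2, Ifngr1, Tlr9 and Socs3 and overlap them for Jak1.

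The 11 genes of interferon induction tested moved both ways. Against mAM_WT, 4 were higher and 5 lower in Imm_KO (81.8% called, beside 48.1% of all genes), with log2 from -1.39 to 4.93. Against mAM_KO, 2 were higher and 4 lower (54.5%, beside 37.9%). Among the sensors that start interferon production, Tlr3, the endosomal receptor for double-stranded RNA, rose 1.56-fold in mAM_KO (16.1, 16.2, 18.4 and 15.3 CPM in mAM_WT, 25.3, 23.1, 29.0 and 19.7 in mAM_KO, adjusted p = 0.00787) and was at 28.7, 26.4 and 28.8 in Imm_KO. With mAM_KO 4 in place of mAM_KO 1, the adjusted p for Tlr3 was 0.0831. Tlr9, the receptor for CpG DNA, was at 0.251, 0.543, 0.282 and 0.712 CPM in mAM_WT, 0.669, 0.276, 1.52 and 0.893 in mAM_KO and 12.9, 14.4 and 10.3 in Imm_KO. The rise was 30.5-fold against mAM_WT (log2 4.93 ± 0.56 SE, adjusted p = 1.04e-05) and 18.9-fold against mAM_KO (adjusted p = 0.000104), or 12.3-fold without mAM_KO 2 and 28.9-fold without mAM_KO 3. The mAM_WT libraries held 9, 13, 7 and 14 Tlr9 reads, and with 1 CPM added the folds were 9.36 and 7.66. Tlr9 is also expressed by plasmacytoid dendritic cells. Of 6 markers of these cells 2 were measured: Tcf4, which many cell types express, had 36.3 to 45.9 CPM in Imm_KO and 14.1 to 16.8 in mAM_WT, and Cox6a2 had 1.23 to 1.70 and 0.462 to 0.769. Of 7 conventional dendritic cell markers 3 were measured, and 2 of these rose in Imm_KO against mAM_WT. Their sum was 24.2 to 27.5 CPM beside 9.95 to 12.9, and without Clec9a 4.08 to 6.51 beside 3.74 to 6.26. The part of either cell type was not tested.

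Further induced genes with large changes included relatives of those above and moved both ways. Of 71 such genes tested, 41 passed in Imm_KO against mAM_WT (57.7%, beside 48.1% of all genes), 24 higher and 17 lower. Cxcl10 and Cxcl9, which encode chemokines, were 4.81-fold and 3.76-fold lower there, on 2 to 21 reads per Imm_KO library. With 1 CPM added these folds were 1.81 and 1.84 (limma, adjusted p = 0.00991 and 0.00606). Slfn8 rose in mAM_KO (8.97, 7.74, 7.86 and 7.19 CPM in mAM_WT, 15.7, 11.8, 13.5 and 14.3 in mAM_KO, 1.72-fold, adjusted p = 0.0103) and was at 37.9, 35.5 and 47.2 in Imm_KO. In contrast to Slfn5, its mAM_KO libraries lay close together and all above mAM_WT. Slfn1 was at 1.76, 1.23, 0.995 and 1.84 CPM in mAM_WT, 3.95, 1.59, 3.57 and 4.60 in mAM_KO and 12.4, 11.6 and 14.8 in Imm_KO, 4.57-fold higher in Imm_KO than in mAM_KO (log2 2.19 ± 0.35 SE, adjusted p = 0.00032). Ifi209, of the same DNA sensor family as Ifi204, had 0.619 to 1.39 CPM in mAM_WT, between 0.531 and 2.01 in mAM_KO and between 11.1 and 13.6 in Imm_KO (11.7-fold against mAM_WT and 10.7-fold against mAM_KO, adjusted p = 2.02e-05 and 7.43e-05). Oas1g had 0.0603 to 0.779 CPM in mAM_WT, between 0.859 and 3.0 in mAM_KO and between 2.34 and 3.41 in Imm_KO (16.3-fold in Imm_KO against mAM_WT, adjusted p = 0.000766). This rested on 29, 1, 2 and 4 reads in mAM_WT and on 50, 73 and 44 in Imm_KO, and the fold was 26.8 without mAM_WT 1, 9.96 under edgeR and 10.3 under DESeq2. Oas1g shares sequence with Oas1a, so both are uncertain. Of the 6 Schlafen genes in the lists, Slfn1, Slfn4, Slfn5 and Slfn8 were higher in Imm_KO than in mAM_WT, Slfn2 did not pass and Slfn9 went the other way. Slfn9 had 23.5 to 33.2 CPM in mAM_WT, between 23.2 and 30.8 in mAM_KO and between 9.15 and 12.2 in Imm_KO (2.48-fold lower than in mAM_WT, adjusted p = 3.86e-06).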

How the data were processed

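RNA of 40000 sorted AMs per library was sequenced as single 60-base reads. Per the study's methods and the submitters' processing notes, the authors trimmed adapters with cutadapt, estimated expression with RSEM 1.3.1 against the mouse GRCm38 transcriptome of Ensembl release 99 and normalized by TMM. The methods name bronchoalveolar lavage as the source of the cells, while the series text names digested lung. The deposited values are CPM of 12932 genes in 11 libraries. Every value was a whole number of reads plus 0.5, times the CPM of 1 read (100% within 0.01 reads), so no value was 0 and no pseudocount was added, and the reads were recovered. RSEM shares reads among paralogs, so the share of 60-base windows found in other genes is given above for the ISGs with the largest shares. Herc6 (12.0%), Rtp4 (11.2%), Igtp (10.0%), Ifit1 (6.31%) and Trim30a (5.50%) also shared windows, so part of their reads is uncertain too. The remaining ISGs shared 4.47% or less. Windows were counted for the chosen ISGs only, so the other pathway genes were not checked in this way.

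log2 CPM was fitted with limma 3.58.1 (R 4.3.3; 1 mean per group, eBayes with a variance trend, two-sided, Benjamini-Hochberg over all genes, threshold 0.05) over the 10 libraries the study used, for genes that reached 1 CPM in 3 or more of them. Fold changes and SE come from this fit. Alternatives were edgeR 4.0.16 and DESeq2 1.42.0 on the recovered reads, 10 other settings or libraries, and leaving out each of the 10 libraries. Scripts were tested on simulated data. The genes and lists were chosen with earlier results of these data known. Values by library are given for up to 8 called genes with the largest change per comparison, for the 4 of lowest p where fewer than 4 were called, and for Irf7, Irf9, Stat2, Ddx58, Ifih1 and Isg15; of the other pathway genes, for Ifnar1, Ifnar2, Jak1, Tyk2 and the 3 largest called changes per comparison. Dhx58, Samhd1, Ifit1, Ifngr1, Ifi204, Cmpk2, Igtp, Dtx3l, Slfn4, Slfn9, Cxcl9 and Cxcl10 were added after their values were seen. Promoters and windows around motifs come from RefSeq; lengths for levels per kilobase come from the gene annotation of the same build. One result on another pathway gene is not reported here.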

Additional observations from a re-analysis of the deposited data

Results flagged for a closer look

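In 94 groups of 4 libraries (47 genes in mAM_WT and in mAM_KO with its replicate 4), the highest or lowest library stood apart from the others in 3, by Dixon's test of the gap to the nearest library; chance gives about 1 in 20. These were Irf9 in mAM_WT replicate 4 (29.8 CPM, the highest), Zbp1 in mAM_KO replicate 4 (14.2 CPM, the highest) and Rsad2 in mAM_KO replicate 4 (4.70 CPM, the highest). The library mAM_KO replicate 4 was outside the reported fit and entered alternative settings only. It held 29 of the 47 genes (61.7%) above every mAM_WT library, beside 22.5% of all genes.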

How the results depend on the processing

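Of the 47 genes, 0 were called between mAM_KO and mAM_WT in the reported fit. The count was 1 (Gbp7) with a filter at 5 CPM (33 genes tested, beside 6.66% of all genes called), with quantile normalization (4.34%) and without the TMM factor (4.55%). Under DESeq2 it was 2 (Gbp7 and Trim30a, beside 10.6%). On leaving out a library it was 0 to 2, with 2 without mAM_WT replicate 1 (6.71%). Over all alternatives the count between Imm_KO and mAM_WT was 18 to 24, beside 39.9% to 53.3% of all genes. The 18 came from the filter at 5 CPM, with 33 genes tested. Between Imm_KO and mAM_KO the count was 10 to 16, beside 30.2% to 42.8% of all genes. No gene of the 47 changed direction where it was called. Of the other pathway genes, 9 were called between mAM_KO and mAM_WT, where 4.84% of all genes were. With only the 2 groups fitted 4 were called (beside 1.51% of all genes), without a variance trend 3 (0.947%) and under DESeq2 15 (10.6%). With mAM_KO replicate 4 in place of replicate 1, chosen after seeing the data, 2 were called (1.26%). Leaving out a library gave 3 to 15: 3 without mAM_KO 1 (1.65%), 4 without mAM_WT 2 (1.71%), 5 without mAM_KO 3 (1.26%) and 15 without mAM_KO 2 (6.64%). The cause was not tested.

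With the replicate number as a block, 0, 20 and 12 of the 47 genes were called in the 3 comparisons, and 4 of the other pathway genes between mAM_KO and mAM_WT. The shares of all genes called in this setting were 1.35%, 44.1% and 30.2%. Correlations of deviations from the group means, over all genes tested, were -0.129 to 0.0590 in 8 same-numbered pairs and -0.154 to 0.208 in 25 others. None of the 8 was over 0.1. Over the 47 genes alone, the same-numbered pairs ranged from -0.458 to 0.675. With groups of 3 or 4 libraries, these values do not settle whether the replicate numbers pair the libraries. For Rxra between mAM_KO and mAM_WT, the log2 difference was 0.00133 and lay between -0.0477 and 0.0492 on leaving out a library, with reversed values of -0.0477, -0.0088, -0.00569 and -0.0134. At 1 to 3 CPM, where many of these genes lie, counts of a few to about 100 reads limit the precision. With 1 CPM added, folds of Imm_KO against mAM_WT were 3.28 for Oasl2, 2.44 for Mx1, 2.61 for Phf11b and 2.20 for Usp18, which passed the filter only through Imm_KO. For Ifi209 and Oas1g they were 6.35 and 3.09. Against mAM_KO they were 2.68 for Oasl2 and 5.91 for Ifi209.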
